A study of Mus musculus with 6 samples.

Results

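The 33 genes described here mark the cells that line and wrap brain blood vessels and the fibroblasts of the meninges. They were chosen by symbol, with earlier results of these data known, as 16 endothelial, 6 mural and 11 fibroblast or meningeal markers. All 33 were found by their mouse Ensembl identifiers among the 54232 genes of each library. RNA was sequenced from wild-type cortical neurons labelled CD1, an outbred mouse stock, in 3 groups of 2 libraries: control, PA and PA + PS2. The control libraries are named PDL, the PA libraries IKVAV, after a peptide sequence from laminin, and the PA + PS2 libraries IKVAV plus PEDOT-S_OH, where PEDOT is a conducting polymer. Every library, those of the control included, has peptide amphiphile in its treatment label. The sources used here give no age, culture time or dose. They do not say whether repeats 1 and 2 were separate cultures, and p-values therefore cover the spread of these libraries only, which may be technical. The libraries held 30714311 to 33923681 counts, and 12 neuronal markers, among them Map2, Tubb3 and Slc17a7, summed to 7315 to 8058 CPM (counts relative to library total, scaled between libraries by TMM).

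Endothelial cells form the inner wall of vessels and, in the brain, seal it with tight junctions and line it with efflux transporters. Mural cells, the pericytes and smooth muscle cells, sit on the outside of that wall and depend on PDGF signals from the endothelium. Meningeal and perivascular fibroblasts produce collagens and small proteoglycans and are a source of retinoic acid for the developing cortex. Several markers of these cells are also made by other cells of the brain, so a marker that is present does not by itself show that the cell is.

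The 16 endothelial members split into 10 with at least 10 counts in all 6 libraries and 6 that were too low to test. Tie1, an endothelial receptor tyrosine kinase, had no count in any library, which allows at most 3 counts or 0.0893 to 0.0974 CPM per library (counting error only). Cldn5, the main claudin of the blood-brain barrier, had 1, 0, 0, 1, 1 and 0 counts in control 1, control 2, PA 1, PA 2, PA + PS2 1 and PA + PS2 2. In the same order Cdh5, the cadherin of endothelial junctions, had 0, 0, 3, 0, 10 and 0 counts, and Abcb1a, the P-glycoprotein efflux pump, had 0, 0, 1, 0, 0 and 0. Tek, the angiopoietin receptor, reached at most 6 counts and the sialomucin gene Emcn at most 11. Other endothelial genes of the list were measured in every library, with at least 76 counts for Kdr, 43 for Egfl7, 32 for Pecam1, 17 for Flt1 and 14 for Esam. The members thus gave no single answer on the endothelial label, and which cells the reads came from was not tested.

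Detection differed by class. At least 1 count was present in all 6 libraries for 10 of 16 endothelial, 4 of 6 mural and 8 of 11 fibroblast members, and at least 10 counts in all 6 for 10, 3 and 5. In each library 25 to 29 of the 33 members had a count, with the lowest number in PA + PS2 2. Tie1 and Slc6a13, a GABA and taurine transporter of meningeal cells, had none anywhere. The filter on low counts left 23 members for testing, 10 endothelial, 4 mural and 9 fibroblast; Cdh5, Tek, Tie1, Cldn5, Emcn, Abcb1a, Des, Abcc9, Foxd1 and Slc6a13 were not tested.

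**Figure D1:**
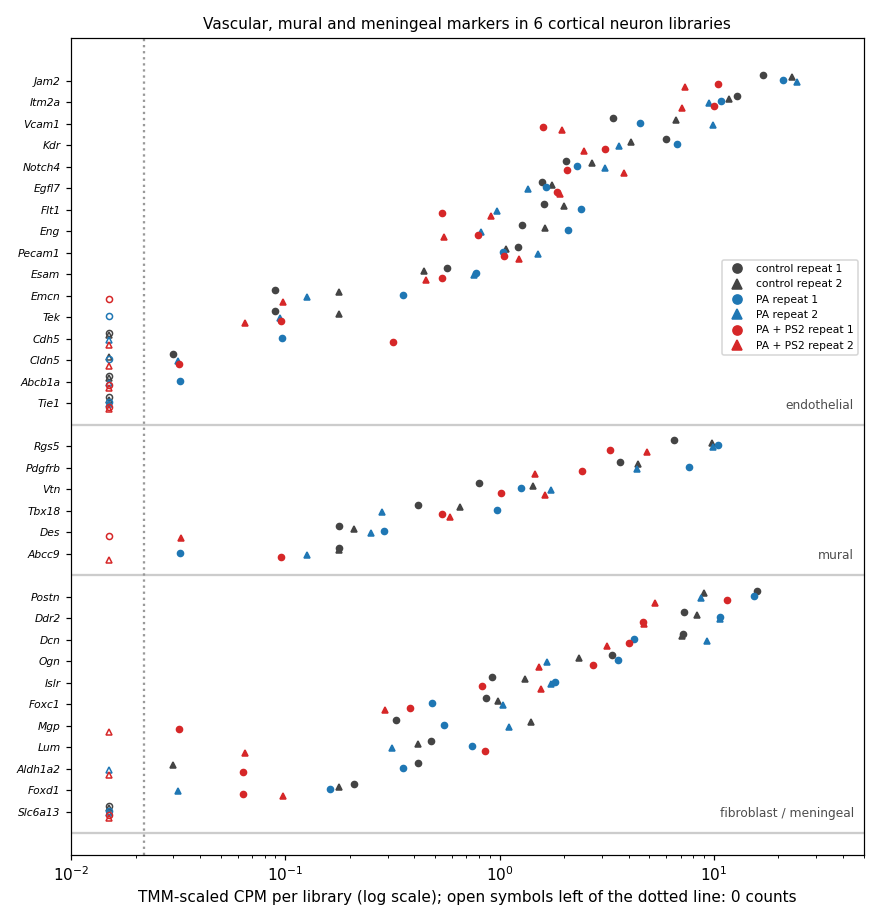
CPM of all 33 members in each library on a log scale, by class and ordered by mean level, with colour for the group and symbol shape for the repeat; open symbols left of the dotted line stand for 0 counts. In PA + PS2 the symbols of Jam2, Vcam1, Rgs5, Pdgfrb and Ddr2 lie left of those of the other 4 libraries, and Tie1 and Slc6a13 are at 0 throughout.

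Levels of different genes were compared per kilobase of exon. The mean over 6 libraries was highest for Itm2a, at 5.93 CPM per kb (range 4.06 to 7.37), followed by Jam2 at 2.85 (1.21 to 4.03) and Rgs5 at 1.65 (0.722 to 2.31). Itm2a lay above Jam2 in every library, and the ranges of Jam2 and Rgs5 overlapped. Postn, Dcn, Ogn, Ddr2, Pdgfrb, Vtn and Vcam1 came next with means between 1.26 and 0.527 CPM per kb, and their ranges overlapped from each gene to the next. Pecam1, an adhesion molecule of the endothelium and of blood cells, was at 0.191 CPM per kb. Cldn5, at 0.0110, stood near the end of the order.

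Among the endothelial members with measurable counts, levels are given for repeat 1 and then repeat 2. Jam2, a junctional adhesion molecule, was at 17.1 and 23.2 CPM in the control, 21.1 and 24.4 with PA and 10.4 and 7.34 with PA + PS2. Vcam1, a cell adhesion molecule also made by some neural stem cells and astrocytes, was at 3.39 and 6.64 CPM, 4.52 and 9.97, and 1.59 and 1.95 in the same groups. For both genes the PA + PS2 libraries were the lowest of the 6, and Vcam1 was higher in repeat 2 of every group. Itm2a, a small transmembrane protein, was at 12.9 and 11.8 CPM in the control, 10.8 and 9.49 with PA and 10.03 and 7.08 with PA + PS2. Kdr, the main VEGF receptor, was at 5.98 and 4.11, 6.74 and 3.63, and 3.12 and 2.47 CPM, and was higher in repeat 1 of every group. Flt1, the VEGF receptor that acts largely as a sink for the ligand, was at 1.61 and 1.99, 2.39 and 0.978, and 0.541 and 0.909 CPM. Eng, a TGF-beta co-receptor, was at 1.28 and 1.64, 2.10 and 0.820, and 0.796 and 0.552 CPM. The PA library of repeat 1 was the highest of the 6 for Kdr, Flt1 and Eng. Both PA + PS2 libraries lay below both of the control for these 3, as they did for 17.1% of all genes tested.

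Other endothelial members kept nearer to one level. Pecam1 was at 1.22 and 1.07 CPM in the control, 1.03 and 1.51 with PA and 1.05 and 1.23 with PA + PS2. Egfl7, a secreted protein of vessel sprouts, was at 1.58 and 1.76, 1.65 and 1.36, and 1.85 and 1.92 CPM. Notch4, an endothelial Notch receptor, was at 2.05 and 2.71, 2.29 and 3.09, and 2.07 and 3.80 CPM. PA + PS2 overlapped with the control for Pecam1 and Notch4, and both its Egfl7 values were above those of the other 4 libraries. Esam, an adhesion molecule of endothelial tight junctions, was at 0.566 and 0.446, 0.774 and 0.757, and 0.541 and 0.454 CPM. The handling of strand is unknown, so counts are uncertain for members that share exon bases with a gene on the other strand. These were Egfl7 (64 bases with Agpat2), Eng (61), Vcam1 (61), Ddr2 (90), Abcc9 (158), Des (220), Abcb1a (553) and Tbx18 (970), and Egfl7 also shares 264 bases with a gene on its own strand.

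Of the 6 mural members, Rgs5 and Pdgfrb carried most of the level. Rgs5, a G protein regulator of pericytes, was at 6.49 and 9.85 CPM in the control, 10.5 and 9.90 with PA and 3.28 and 4.90 with PA + PS2. Pdgfrb, the receptor that keeps pericytes on the vessel, was at 3.63 and 4.43, 7.68 and 4.38, and 2.42 and 1.46 CPM. Both PA + PS2 libraries lay below the other 4 for each gene. Vtn, vitronectin, was at 0.804 and 1.43, 1.26 and 1.73, and 1.02 and 1.62 CPM, with overlapping groups and higher values in repeat 2 throughout. Tbx18, a transcription factor of mural cells, was at 0.417 and 0.655, 0.968 and 0.284, and 0.541 and 0.584 CPM. Des, the muscle filament desmin, had control counts of 6 and 7, PA counts of 9 and 8, and PA + PS2 counts of 0 and 1. These counts were too low for a test, so they allow no statement on change in Des. Abcc9, a potassium channel subunit of pericytes, had at most 6 counts in any library.

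The fibroblast and meningeal members were led by Postn, Ddr2 and Dcn. Postn, the matrix protein periostin, was at 15.8 and 8.99 CPM in the control, 15.5 and 8.74 with PA and 11.6 and 5.32 with PA + PS2. The gap between repeats was larger than that between groups for this gene, with repeat 2 at 0.568, 0.564 and 0.460 of repeat 1. Ogn, the proteoglycan osteoglycin, was also lower in repeat 2, at 3.33 and 2.35, 3.58 and 1.67, and 2.74 and 1.53 CPM. Ddr2, a collagen receptor kinase, was at 7.23 and 8.39, 10.6 and 10.7, and 4.68 and 4.74 CPM, so that the 3 groups did not overlap. Dcn, the proteoglycan decorin, was at 7.20 and 7.14, 4.26 and 9.34, and 4.01 and 3.18 CPM. Islr was at 0.923 and 1.31, 1.81 and 1.73, and 0.828 and 1.56 CPM, and shares 181 bases of exon with Islr2, so its counts are uncertain. Mgp, the matrix Gla protein, had control counts of 11 and 47, PA counts of 17 and 35, and PA + PS2 counts of 1 and 0.

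Among low members of this class, Foxc1, a transcription factor that meningeal development requires, was at 0.863 and 0.982 CPM in the control, 0.484 and 1.04 with PA and 0.382 and 0.292 with PA + PS2. Lum, the proteoglycan lumican, was at 0.476 and 0.417, 0.742 and 0.315, and 0.860 and 0.0649 CPM, with both extremes in PA + PS2. Aldh1a2, which makes retinoic acid in the meninges, had 14, 11 and 2 counts in repeat 1 of control, PA and PA + PS2, and 1, 0 and 0 in repeat 2. Foxd1, a transcription factor of pericyte precursors, had at most 7 counts.

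Of the 33 members, 24 had an entry in the RefSeq table of promoters on GRCm38.p6. Those of Ddr2 and Rgs5 are shown because both genes fell in PA + PS2 against PA, in a test given further on. Each sequence runs from 250 bases before the annotated start to 50 after it. Capitals mark a match to a motif searched on both strands. The motif of the TEAD factors was searched as GGAATG. That of the ETS factors, which are active in endothelium, was searched as CCGGAA. The third, the TATA box, was searched as TATAAA.
Ddr2 (chr1:170088895-170089194, minus strand): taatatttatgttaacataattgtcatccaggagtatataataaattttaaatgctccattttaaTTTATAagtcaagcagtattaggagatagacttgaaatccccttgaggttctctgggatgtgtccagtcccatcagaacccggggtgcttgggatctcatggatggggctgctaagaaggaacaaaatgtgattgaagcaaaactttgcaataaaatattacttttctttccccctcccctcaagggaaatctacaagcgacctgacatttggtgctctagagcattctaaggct
Rgs5 (chr1:169655251-169655550, plus strand): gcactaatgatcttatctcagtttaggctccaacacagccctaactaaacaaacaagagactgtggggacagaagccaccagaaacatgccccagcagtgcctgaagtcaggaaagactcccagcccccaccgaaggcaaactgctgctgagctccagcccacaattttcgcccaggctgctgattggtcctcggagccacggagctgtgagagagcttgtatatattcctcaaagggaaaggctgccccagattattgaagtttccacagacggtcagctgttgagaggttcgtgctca
The Ddr2 window holds 1 TATA match on the reverse strand, at position -185 from the start, and no TEAD or ETS letters. The start used by RefSeq there lies inside the Ddr2 gene of GENCODE, which runs from 169972307 to 170110762. The Rgs5 window holds none of the 3 motifs. Of all 32851 promoters in the table, 14.7% hold the TEAD, 14.9% the ETS and 13.6% the TATA letters. Of the 24 members with an entry, 7, 2 and 4 do.

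The summed level of each class was lower in PA + PS2 than in the other groups. Endothelial members summed to 47.8 and 55.7 CPM in the control, 53.9 and 56.2 with PA and 32.5 and 27.9 with PA + PS2. Mural members summed to 11.7 and 16.8, 20.7 and 16.7, and 7.36 and 8.60 CPM, and fibroblast members to 36.8 and 31.2, 38.1 and 34.6, and 25.2 and 16.8 CPM. In each class both PA + PS2 libraries lay below the other 4. The PA + PS2 to control ratio was 0.679 in repeat 1 and 0.500 in repeat 2 for endothelial, 0.629 and 0.513 for mural, and 0.685 and 0.538 for fibroblast members. Jam2 alone made up 37.8% of the endothelial sum, Rgs5 54.9% of the mural and Postn 36.1% of the fibroblast sum. Without Jam2 the endothelial ratio was 0.673 in place of 0.583. In bulk RNA, fewer cells of a type and less RNA per cell cannot be told apart, and which cells the reads came from was not tested. No test was made on sums.

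**Figure D2:**
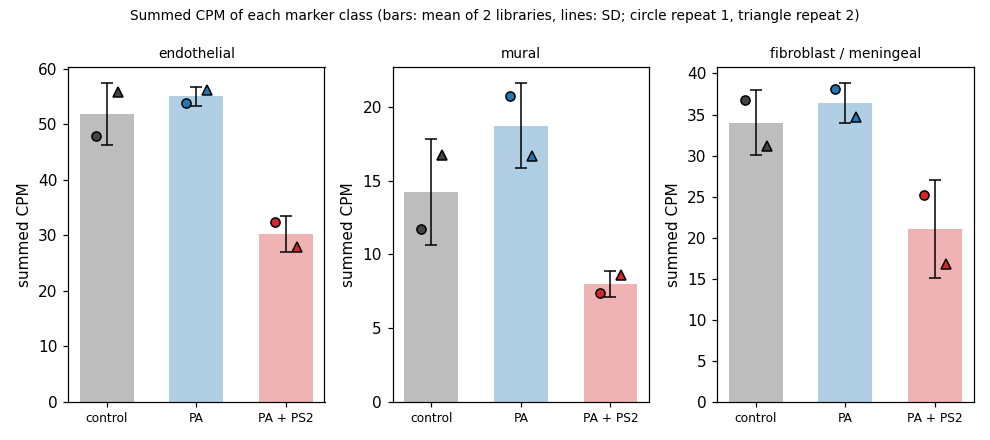
Summed CPM of the endothelial, mural and fibroblast or meningeal members in each library, with bars for the mean of 2 libraries and lines for the SD; circles are repeat 1 and triangles repeat 2. The PA + PS2 sums, 27.9 to 32.5, 7.36 to 8.60 and 16.8 to 25.2 CPM, are below every control and PA sum of their class.

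Whether PA alone changed these genes was asked first. In the quasi-likelihood test of edgeR none of the 23 members passed for PA against control (0, beside 0% of the 17299 genes tested). At an unadjusted p under 0.05 there was 1 member, Ddr2, with a log2 fold change of 0.45, beside 0.798% of all genes. With the repeat number added to the model as a block, no gene passed, and 2 members, Ddr2 and Vcam1 (0.52), had an unadjusted p under 0.05, beside 1.87% of all genes. DESeq2 called no member with or without the block. The mural sum of PA was 1.77 times the control in repeat 1 and 0.996 times in repeat 2. For Pdgfrb the ratio was 2.11 and 0.989 in the 2 repeats, and for Eng 1.64 and 0.501.

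Between PA + PS2 and control, Jam2 and Vcam1 fell with the repeat block and no member rose. The fit without the block passed 0 of 23 members, beside 0% of all genes. With an unadjusted p under 0.05 there were 11, Mgp included and all lower in PA + PS2, beside 6.82% of all genes in either direction. With the block, edgeR's log2 fold change was -1.17 ± 0.19 (SE) for Jam2, adjusted p = 0.0280, and -1.49 ± 0.28 for Vcam1, adjusted p = 0.0361. The 2 members that fell stood beside 0.538% of all genes that fell. At an unadjusted p under 0.05 with the block there were 13 members, Mgp included, beside 11.9% of all genes. DESeq2 without the block passed Jam2 (adjusted p = 0.000528) and no other member, beside 0.636% of all genes lower. Neither gene passed with the block when control 2 (adjusted p = 0.761 for Jam2 and 0.783 for Vcam1) or PA + PS2 2 (0.565 and 0.826) was left out, and Vcam1 did not without control 1 (0.196). Neither passed when 2 libraries had to hold 50 counts or more.

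Several other members were lower in PA + PS2 than in the control without passing. Rgs5 had a block log2 fold change of -0.996 ± 0.226 (edgeR adjusted p = 0.0719), with ratios of 0.506 and 0.498 in repeats 1 and 2. Ddr2 was at -0.73 ± 0.19 (edgeR adjusted p = 0.107) and Kdr at -0.85 ± 0.24 (edgeR adjusted p = 0.148). For Mgp the 1 count in PA + PS2 stood against 58 in the control, with edgeR block adjusted p = 0.0537. The ratio was 0.0186 (95% exact interval 0.000464 to 0.108, counting error only). Mgp passed the count filter only through the control and PA libraries, so it could be tested only as a fall. Of the 23 members tested, 17 had a block log2 fold change below 0 with a median of -0.73, beside 47.9% of all genes and a median of 0.01. Aldh1a2 passed the count filter only through control 1 and PA 1, so it too could be tested only as a fall. Both Aldh1a2 and Mgp are among the 17. By class the medians were -0.69 for 10 endothelial, -0.46 for 4 mural and -0.73 for 9 fibroblast members, Aldh1a2 and Mgp included. Both libraries of PA + PS2 lay below both of the control for 12 of the 23, Mgp included, beside 17.1% of all genes. The members were chosen with earlier results of these data known, so these shares are no test of the set. Pecam1 (-0.01 ± 0.39) and Esam (-0.02 ± 0.54), and with values above 0 Notch4 (0.29 ± 0.27) and Egfl7 (0.17 ± 0.32), did not pass, and their errors leave room for change in either direction.

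What PS2 added to PA was asked with the last comparison, which shares the PA + PS2 libraries with the one before, so the 2 are not independent. Vcam1, Jam2, Ddr2, Rgs5, Pdgfrb and Mgp fell with the repeat block, and no member rose. Mgp passed the count filter only through the control and PA libraries, so it could be tested only as a fall, and the other 5 members passed when 2 libraries had to hold 50 counts or more. Without the block 0 of 23 passed, beside 0% of all genes, and 8, Mgp included, had an unadjusted p under 0.05, beside 7.60% of all genes. The 6 that fell with the block (5 without Mgp) stood beside 1.39% of all genes that fell. At an unadjusted p under 0.05 with the block there were 11 members, Mgp included, beside 12.2% of all genes. DESeq2 without the block passed 5 of the 6, all but Mgp, to which it gave no adjusted p, beside 1.01% of all genes lower. Both libraries of PA + PS2 lay below both of PA for 13 of the 23 members, Mgp included, beside 18.4% of all genes.

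Vcam1 had the largest of these falls apart from Mgp, with a block log2 fold change of -2.01 ± 0.26 and ratios to PA of 0.353 and 0.195 in repeats 1 and 2 (edgeR adjusted p = 0.00487). Jam2 was at -1.35 ± 0.19 (edgeR adjusted p = 0.00753) with ratios of 0.494 and 0.301. Ddr2 was at -1.18 ± 0.18 (edgeR adjusted p = 0.00776), and its ratios of 0.440 and 0.445 were close between repeats. The mural pair followed, Rgs5 at -1.33 ± 0.22 (edgeR adjusted p = 0.0127) and Pdgfrb at -1.63 ± 0.31 (edgeR adjusted p = 0.0229). Mgp, with 1 count against 52, had a ratio of 0.0194 (95% exact interval 0.000482 to 0.113, counting error only; edgeR adjusted p = 0.0395). None of the 6 passed with the block without PA + PS2 2, with adjusted p from 0.337 to 0.768. Without PA 2, Jam2 (0.0608) and Mgp (0.0936) did not pass; without PA 1, Pdgfrb (0.111) did not; without PA + PS2 1, Pdgfrb (0.0606) and Rgs5 (0.0524) did not. Mgp also did not pass without control 1 (0.0635) or control 2 (0.0718).

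**Figure D3:**
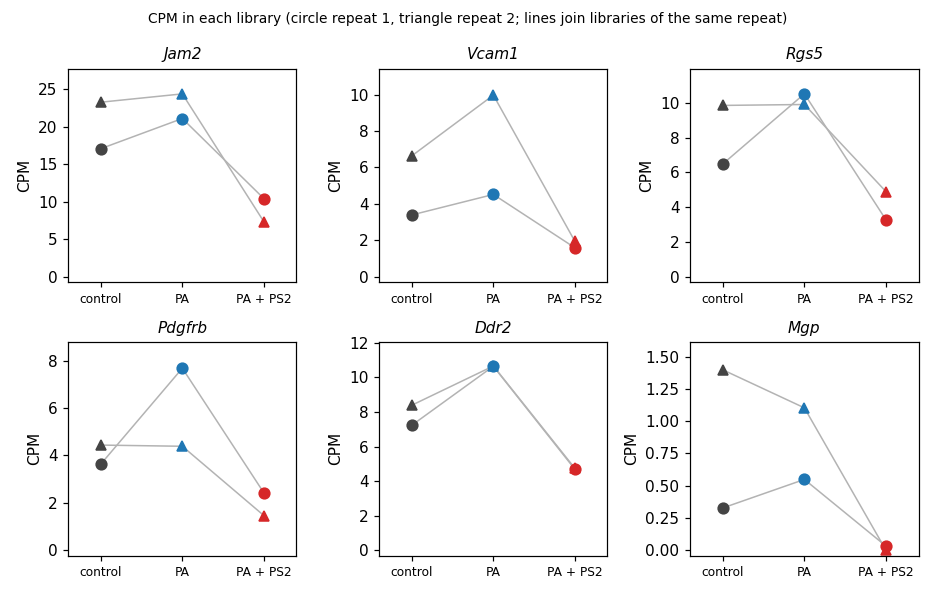
CPM of the 6 members that fell in PA + PS2 against PA with the repeat block, per library; circles are repeat 1, triangles repeat 2 and lines join libraries of the same repeat. In every panel both PA + PS2 values are the lowest, for example 10.4 and 7.34 CPM for Jam2 and 4.68 and 4.74 for Ddr2.

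The remaining 17 members tested did not pass against PA. Kdr was at -0.88 ± 0.24 with ratios of 0.463 and 0.680 (edgeR block adjusted p = 0.106). Dcn differed between repeats, with ratios of 0.942 and 0.341 (edgeR block adjusted p = 0.258), as did Flt1 with 0.227 and 0.929. Over the 23 members 21 had a block log2 fold change below 0, with a median of -0.88, beside 49.3% and a median of 0.00 over all genes. Mgp and Aldh1a2, which could be tested only as falls, are among the 21 and in the median. Egfl7 (0.33 ± 0.33) and Notch4 (0.12 ± 0.27) were the 2 above 0.

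**Figure D4:**
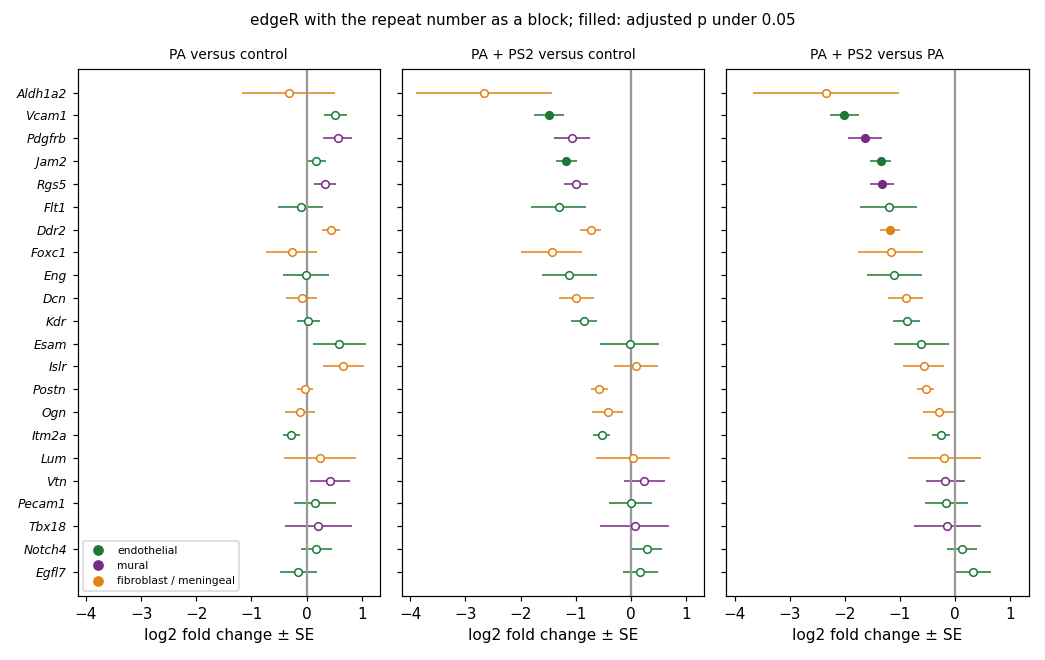
Log2 fold change with its SE from edgeR with the repeat block, for the 22 tested members other than Mgp, in the 3 comparisons and on a shared linear axis; filled symbols have an adjusted p under 0.05. In the PA panel none is filled, in PA + PS2 against control Jam2 and Vcam1 are, and in PA + PS2 against PA also Rgs5, Pdgfrb and Ddr2.

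Other genes of vessel signalling were read from lists set up beside the members. Of 17 angiogenic ligands, all tested, Wnt7b rose in PA + PS2 with the block against control and against PA, and 16 did not pass in either. Wnt7b, a ligand with which neural cells direct brain vessel growth, was at 56.98 and 79.6 CPM in the control, 56.99 and 76.9 with PA and 76.99 and 113 with PA + PS2 (edgeR block adjusted p = 0.0236 against control and 0.00964 against PA). Of 15 endothelial receptor and response genes 11 were tested, and Epas1 and Notch1 fell against the control, with 9 not passed. Notch1, which neural progenitors also express, was at 8.84 and 23.4, 14.2 and 37.4, and 5.64 and 8.08 CPM, with higher values in repeat 2. Against PA, S1pr1 and Tspan12 fell as well and Nrp2 rose. Robo4 and Flt4, more confined to endothelium, had at most 3 and 7 counts in any library. Ptprb, of the same list, had 15 to 40 counts in every library and did not pass.

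Of 14 endothelial transcription factors 8 were tested and none passed in either comparison with PA + PS2. Sox17 had no count in any library, whereas Tal1 had 80 to 125 in every library. Of 16 barrier and transport genes 11 were tested, of which Mfsd2a fell against the control and against PA, and Slco1c1 fell against PA. Mfsd2a, a lysophospholipid transporter of the barrier that other brain cells also make, was at 11.3 and 17.0 CPM in the control, 15.1 and 18.2 with PA and 7.36 and 6.27 with PA + PS2. Ly6c1 and Ly6a, surface genes of mouse brain endothelium, had no count, and Vwf, von Willebrand factor, had at most 4 counts in any library. Plvap, a gene of fenestrated endothelium in the same list, was at 6.10 to 10.1 CPM and did not pass in either comparison with PA + PS2 (edgeR block adjusted p = 0.455 against control and 0.468 against PA).

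Of 14 mural and contractile genes 11 were tested, and Cspg4 and Mcam fell in both comparisons with PA + PS2. Cspg4, which other brain cells also make, was at 3.78 and 6.10 CPM in the control, 3.61 and 5.05 with PA and 0.892 and 0.941 with PA + PS2. Mcam, an adhesion molecule of pericytes, was at 7.23 and 8.16 CPM in the control, 8.39 and 5.77 with PA and 3.22 and 2.86 with PA + PS2. The pericyte genes Kcnj8 and Higd1b had at most 2 counts in any library, whereas Acta2, smooth muscle actin, had 597 to 2950. Of 23 meningeal and fibroblast genes 21 were tested. Igfbp7 fell in PA + PS2 against both groups, and Fbln2 and Vim fell against PA. Fbln2, a matrix glycoprotein, was at 4.17 and 3.54, 4.03 and 8.64, and 0.828 and 0.357 CPM. In edgeR no gene of these 6 lists passed in PA against the control, with or without the block, or in the other comparisons without it. The lists were not read in DESeq2.

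Markers of other cells moved in the same libraries. Of 12 astrocyte markers, 6 fell in PA + PS2 against PA with the block (Aldoc, Mlc1, Sox9, Gja1, Aldh1l1 and Aqp4) and 0 against the control. The astrocyte sum was 246 and 337 CPM in the control, 266 and 495 with PA and 227 and 279 with PA + PS2. Of 8 progenitor and cycling markers, Cdk1, Nes and Ccnb1 fell against the control, and these and Top2a against PA. Their sum was 118 and 224, 138 and 277, and 70.8 and 89.4 CPM, so that it was lowest in PA + PS2 and higher in repeat 2. The oligodendrocyte markers Mag and Mobp rose in PA + PS2 against both groups with the block. Of the 9 markers on that list, 3 (Olig1, Olig2 and Sox10) had fold changes below 0 in both comparisons, and none of these passed. Olig1 was at 12.5 and 37.9 CPM in the control, 9.75 and 59.6 with PA and 2.45 and 2.37 with PA + PS2. Of 10 microglial markers 5 were tested and none passed in edgeR with the block, and all 10 summed to 3.31 to 5.74 CPM. Itgam was at 0 in 4 of the 6 libraries, whereas Aif1 had 66 to 114 counts in every library. Ttr, a choroid plexus gene, rose against both groups with the block, but its level lay mostly in repeat 1, at 10.3, 5.10 and 23.6 CPM in control, PA and PA + PS2 against 0.0298, 0.315 and 0.617 in repeat 2. The 3 blood markers tested, of 6, did not pass. Of the 12 neuronal markers, Gad1 fell against PA. The part of these cells in the change of Vcam1, Jam2 and the other members was not tested.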

How the data were processed

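Each library's file holds raw counts by Ensembl gene as deposited by the authors, per the file headers and the whole-number values. Per the submitters' processing notes the tools were HTSeq 2.0.2, STAR 2.7.5, cutadapt 4.2 and DESeq2 1.14.1, with mm10 as build; no role or setting of any is known, nor the annotation release or strand setting. Symbols, coordinates and exon lengths come from GENCODE M21 (GRCm38, also called mm10).

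Differences were tested in R 4.3.3 by edgeR 4.0.16 (TMM, filterByExpr with a minimum count of 10, robust quasi-likelihood F test, 1 model over 6 libraries, 3 residual degrees of freedom). After the filter 17299 genes remained. A gene passed at a Benjamini-Hochberg adjusted p under 0.05 over all of these. SEs come from the fold change and the F statistic. DESeq2 1.42.0 and limma 3.58.1 (voom) were alternatives. The script was tested on simulated data.

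The repeat number was also fitted as a block. The differences between repeats 1 and 2 correlated at 0.35 (control and PA), 0.36 (control and PA + PS2) and 0.21 (PA and PA + PS2) over genes, read over these 3 pairs of groups since each comparison has only 2 pairs. The repeats were treated as paired on this basis alone: no label ties a repeat number to a litter, batch or day, and the repeat 2 libraries carry T3, T2 and T12 in their names for control, PA and PA + PS2. The biological coefficient of variation was 16.7% without and 9.57% with the block, which leaves 2 residual degrees of freedom.

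Members, classes and lists were chosen with earlier results of these data known. Members with a mean of at least 1 CPM in a group, or that passed with or without the block, were to be given by library. Outside this rule, the other tested members and some not tested, Des among them, are also given by library. Genes of the other lists are named from those that passed with the block, at most 6 per list. Further genes of these lists were named after their values were seen, for being at or near 0 or as a contrast. An exact permutation test of 2 libraries against 2 cannot go below p = 0.333 and was not used.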

Additional observations from a re-analysis of the deposited data

How the results depend on the processing

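Without the replicate block, no member passed in edgeR in any of the 3 comparisons with no filter, with at least 50 counts in 2 libraries, scaled by library totals alone or by RLE size factors, with limma-voom, the legacy quasi-likelihood, only the 2 groups compared, or with each library left out (0 to 0 members). DESeq2 called 1 member for PA + PS2 against control and 5 against PA. With the replicate block, PA + PS2 against control gave 2 members in edgeR, 3 in DESeq2, 1 in limma-voom, 0 with at least 50 counts in 2 libraries and 10 with only the 2 groups compared. PA + PS2 against PA gave 6 in edgeR, DESeq2, limma-voom and with only the 2 groups, and 5 with the 50-count filter. Leaving out each library with the block gave 0 to 6 members for PA + PS2 against control (5 or 6 when the library left out was of PA, 3 for PA + PS2 1, 1 for control 1, and 0 for control 2 or PA + PS2 2). Against PA it gave 0 to 6 (6 when PA 1 was left out, 4 for PA 2 or PA + PS2 1, 5 for either control, 0 for PA + PS2 2). PA against control gave 0 members under every alternative run.

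The summed CPM ratios moved by less than their spread under RLE size factors and library totals. With 1 choice changed at a time for the sums (scaling, a library left out, 1 repeat alone, without the highest member) the PA + PS2 to control ratio lay between 0.476 and 0.742 in the 3 classes. With 2 changed together it reached 0.783, for mural members without Rgs5 in repeat 1. Members under 1 CPM rest on few counts, and the 10 members not tested allow no statement on change.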
